A study of Bos taurus with 10 samples.

Results

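The small leucine-rich proteoglycans are secreted matrix proteins, built on a core of leucine-rich repeats, that bind collagen fibrils. The 7 genes described here are BGN, DCN, ASPN, LUM, FMOD, PRELP and OGN, taken as every probe set on the array whose single platform symbol is 1 of these names. All 7 had a probe set, and together they held 9 of the 24016 probe sets tested (9155 named genes). BGN and PRELP had 2 each. Right ventricular tissue of male Holstein calves was profiled on a bovine Affymetrix GeneChip, on which each transcript is read by a set of short probes. The 5 hypoxia calves (PH in the titles, HA in the data columns; calves 173, 178, 192, 199 and 204) spent 14 days in hypobaric hypoxia equivalent to 4570 m. The 5 ambient normoxic control calves (CO; calves 176, 177, 180, 181 and 195) were kept at 1525 m. Exposure began at postnatal day 3 to 7 in both groups, and no allele or drug is named for either. The controls thus also lived at moderate altitude, and each calf gave 1 array.

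In connective tissue these proteins set the width and spacing of collagen fibrils and hold growth factors such as TGF-beta in the matrix. Class I members (BGN, DCN, ASPN) are closest to each other in sequence, and BGN and DCN carry chondroitin or dermatan sulfate chains. Class II members (LUM, FMOD, PRELP) carry keratan sulfate or, in PRELP, few or no chains, and OGN belongs to class III. In the heart they are made mainly by fibroblasts and valve interstitial cells, and biglycan and lumican are known from work in rodents and humans to accumulate in pressure-loaded or failing myocardium.

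All values are the authors' log2 RMA expression, so a step of 1 is a doubling. Differences are hypoxia minus control ± SE from limma, n = 5 calves per group, and a probe set passed at an adjusted p under 0.05 over all 24016 probe sets. Levels are set against each other only within a probe set, because probe sets differ in brightness for the same amount of RNA. Array medians lay between 5.48 and 5.54, and the median difference over all probe sets was -0.02. Cardiomyocyte markers were bright in all calves. The mean over 9 of them was 13.8 to 13.9 in hypoxia calves and 13.7 to 13.8 in control calves. This was near the top of the range of 14.4. Hypoxia calves 199 and 178 stood apart on the first principal component (30.4% of the variance). They scored 46.1 and 34.4 there, the remaining 3 hypoxia calves 9.79 to 13.9 and the controls -28.0 to -13.6. Results are therefore also given without these calves.

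BGN was the only member that passed. Biglycan, its product, binds collagen and TGF-beta and, when released from the matrix, signals through the innate receptors TLR2 and TLR4. On the brighter probe set BGN read 9.52, 9.18, 8.92, 9.94 and 9.07 in hypoxia calves 173, 178, 192, 199 and 204, against 8.22, 8.68, 8.13, 7.95 and 8.16 in control calves 176, 177, 180, 181 and 195. The groups did not overlap, and calf 199 was highest. The means were 9.33 ± 0.41 in hypoxia and 8.23 ± 0.27 in control (SD, n = 5 each), a difference of 1.10 ± 0.19 (2.14-fold; 95% interval 0.67 to 1.52; limma with Benjamini-Hochberg adjustment, adjusted p = 0.0163). The dimmer probe set read 7.93 to 9.17 in hypoxia calves, with a median of 8.27, and 7.13 to 7.90 in control calves, with a median of 7.30. It too separated the groups, with a rise of 1.06 ± 0.22 (2.09-fold, adjusted p = 0.0305). Its name ends in _x_at, Affymetrix's mark for probes that may also match other transcripts, and the brighter set does not carry that mark.

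These 2 BGN probe sets were the only ones of the 9 to pass upward, where 1.65% of all probe sets passed upward. None of the 9 passed downward, where 1.07% of all probe sets did (limma). At an unadjusted p under 0.05, 3 were higher and 1 was lower, by limma and by an ordinary t statistic alike, where 8.69% of all probe sets were higher and 8.98% lower by limma. By gene, on the brightest probe set of each, 1 of 7 members rose and 0 fell, against 2.17% and 1.49% of named genes. The same 2 probe sets were the only members in which the groups did not overlap (2.71% of all probe sets lay wholly higher in hypoxia, 2.75% wholly lower). With 7 genes these counts describe BGN more than the family.

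BGN's brighter probe set kept its call with any 1 calf left out, with differences of 0.94 to 1.21 (highest adjusted p = 0.0482, without control calf 181). Without hypoxia calves 178 and 199 together the difference was 0.94 ± 0.18 and did not pass (adjusted p = 0.0578). The dimmer probe set lost its call when control calf 176, 180, 181 or 195 was left out, or hypoxia calf 173 or 178, with an adjusted p of 0.0549 to 0.0798 and a difference of 1.0 to 1.11. Calls over the whole array fell too. With all 10 calves 652 probe sets passed. With 1 calf left out 241 (without control calf 181) to 605 (without hypoxia calf 173) passed, and 155 without calves 178 and 199 together. Lost calls here and below stand beside these counts. The labels name no batch. By number the calves form a lower run (2 hypoxia, 4 control) and an upper run (3 hypoxia, 1 control), and BGN differed by 1.10 in the lower and 1.15 in the upper.

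**Figure D1:**
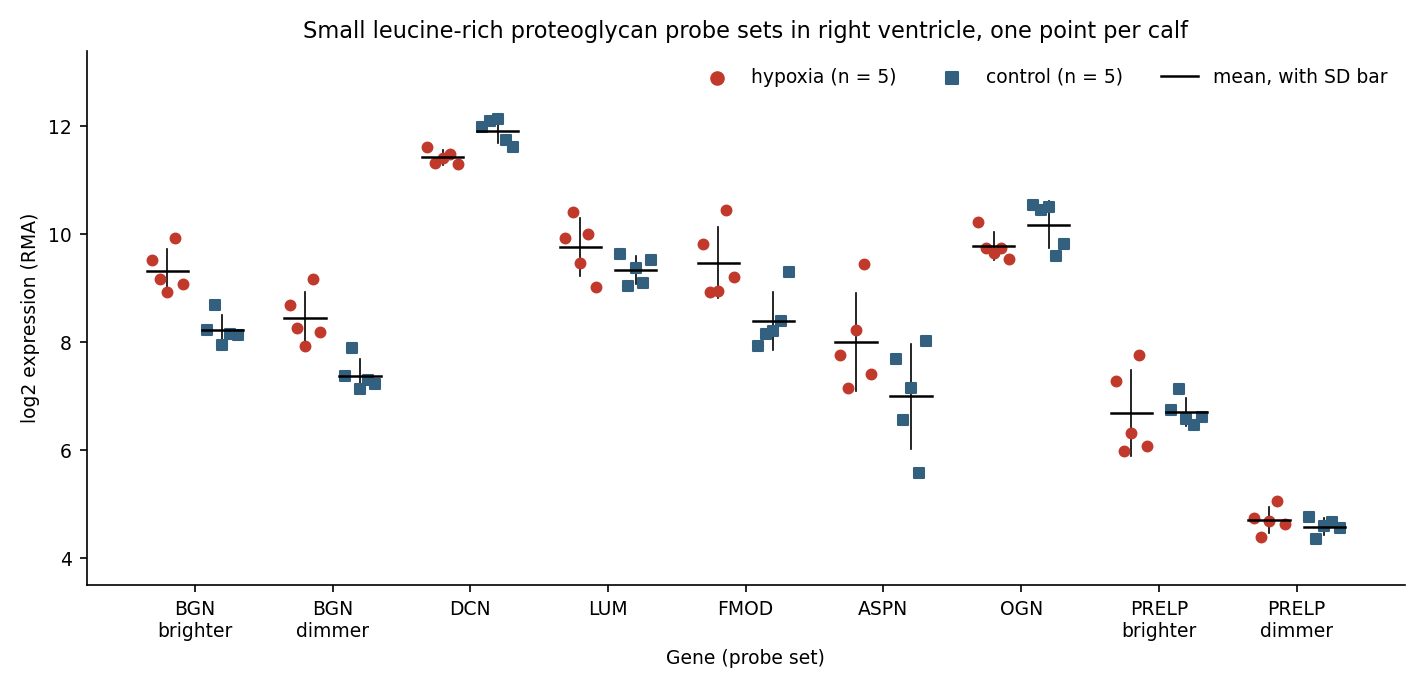
Log2 RMA expression (vertical axis) of each of the 9 probe sets, 1 point per calf, with hypoxia calves as circles to the left of control calves as squares; long bars are means and thin bars 1 SD (n = 5 each). Both BGN probe sets lie higher in every hypoxia calf, DCN lies lower with the groups touching at 11.6, and PRELP spreads wider in hypoxia.

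DCN lay on the other side of 0. Decorin, the closest relative of biglycan, coats collagen fibrils, binds TGF-beta and can engage receptor tyrosine kinases. It read 11.62, 11.32, 11.41, 11.49 and 11.29 in hypoxia calves 173, 178, 192, 199 and 204, against 11.99, 12.10, 11.61, 12.13 and 11.75 in control calves 176, 177, 180, 181 and 195. Only hypoxia calf 173 and control calf 180 overlapped, at 11.62 and 11.61. The means were 11.43 ± 0.13 in hypoxia and 11.91 ± 0.23 in control (SD, n = 5 each), a difference of -0.49 ± 0.12 (0.71-fold; 95% interval -0.75 to -0.23) that narrowly did not pass (limma, adjusted p = 0.0537). Left out singly, control calf 180 was the 1 calf without which DCN passed (difference -0.56, adjusted p = 0.0371); without hypoxia calves 178 and 199 it differed by -0.47 (adjusted p = 0.199). DCN was brighter than 98.3% of probe sets, a range where RMA values can be compressed.

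BGN was also set against DCN in the same calf, which restates the 2 differences above from the same arrays. Taken within each calf, BGN minus DCN was -2.10, -2.14, -2.48, -1.55 and -2.22 in hypoxia calves 173, 178, 192, 199 and 204, against -3.76, -3.41, -3.48, -4.18 and -3.59 in control calves 176, 177, 180, 181 and 195. The size of such a value depends on the probe sets, and only its shift between groups is read. It was higher by 1.58 in hypoxia, and the groups did not overlap (exact permutation test of the calves' group labels, two-sided, p = 0.00794, the smallest that 5 against 5 can give; adjusted p = 0.0476 over 6 pairs of members of the same class). Without hypoxia calves 178 and 199 the shift was 1.42 and the groups again did not overlap, at the smallest exact p that 3 against 5 calves allow, 0.0179 (adjusted p = 0.107).

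ASPN, the class I member asporin, which lacks the chain attachment sites of its relatives and binds collagen and TGF-beta, varied most between calves. Hypoxia calves 173, 178, 192, 199 and 204 read 7.77, 7.15, 8.23, 9.45 and 7.41, and control calves 176, 177, 180, 181 and 195 read 7.70, 6.57, 8.02, 7.15 and 5.57. The groups overlapped broadly, with calf 199 the highest and control calf 195 the lowest of all calves. The difference was 1.0 ± 0.50 (95% interval -0.09 to 2.09; limma, adjusted p = 0.331), and 0.64 without hypoxia calf 199 or without control calf 195. It was 0.10 in the lower run of calf numbers and 2.79 in the upper, where calf 195 is the only control. Without hypoxia calves 178 and 199 together it was 0.80 (limma, adjusted p = 0.56). Against DCN in the same calf ASPN shifted by 1.49 (exact permutation p = 0.0476; adjusted p = 0.0952), whereas BGN minus ASPN shifted by 0.10, with 1.32 ± 0.69 in hypoxia and 1.23 ± 1.07 in control (SD; exact p = 0.897).

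Among class II members FMOD had the largest difference. Fibromodulin steers collagen fibril growth and the site of cross-linking by lysyl oxidase. It read 9.82, 8.92, 8.95, 10.46 and 9.21 in hypoxia calves 173, 178, 192, 199 and 204, against 7.92, 8.16, 9.31, 8.21 and 8.40 in control calves 176, 177, 180, 181 and 195. Control calf 180 alone reached into the hypoxia range. The difference of 1.07 ± 0.32 (2.11-fold; 95% interval 0.37 to 1.78) was about the size of BGN's and did not pass (limma, adjusted p = 0.102). It was 1.30 without control calf 180 (adjusted p = 0.051) and 0.83 without hypoxia calf 199 (adjusted p = 0.17), and it was 0.97 and 1.15 in the lower and upper runs of calf numbers. Without hypoxia calves 178 and 199 together it was 0.93 (limma, adjusted p = 0.223).

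LUM, the gene of the keratan sulfate proteoglycan lumican, read 9.94, 10.42, 9.46, 10.01 and 9.03 in hypoxia calves 173, 178, 192, 199 and 204, against 9.64, 9.05, 9.53, 9.37 and 9.10 in control calves 176, 177, 180, 181 and 195. Calves 173, 178 and 199 lay above all controls, and calf 204 lay below them. The difference was 0.43 ± 0.23 (95% interval -0.08 to 0.94; limma, adjusted p = 0.372) and 0.14 without calves 178 and 199.

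PRELP, whose product binds collagen and heparan sulfate and is thought to tether basement membranes to the tissue beneath, did not differ in its mean but spread in hypoxia. The brighter probe set read 7.28, 5.99, 6.33, 7.77 and 6.07 in hypoxia calves 173, 178, 192, 199 and 204, against 6.75, 7.14, 6.62, 6.57 and 6.47 in control calves 176, 177, 180, 181 and 195. No hypoxia calf fell inside the control range: 173 and 199 lay above it and the other 3 below. The means were 6.69 ± 0.79 in hypoxia and 6.71 ± 0.26 in control (SD, n = 5 each), a difference of -0.02 ± 0.32 (95% interval -0.72 to 0.67; limma, adjusted p = 0.982). Without hypoxia calves 178 and 199 together the difference was -0.15 (limma, adjusted p = 0.88). The dimmer probe set, brighter than 38.8% of probe sets, read 4.39 to 5.05 in hypoxia calves and 4.35 to 4.76 in control calves, with a difference of 0.12 ± 0.12 (adjusted p = 0.691). Calf 199 was highest and calf 178 lowest among hypoxia calves on both, but on the dimmer set only calf 199 left the control range. The difference in spread was not tested.

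OGN, the class III gene of osteoglycin (mimecan), a small proteoglycan of connective tissue and bone, read 10.23, 9.74, 9.66, 9.75 and 9.55 in hypoxia calves 173, 178, 192, 199 and 204, against 10.54, 10.44, 9.82, 10.51 and 9.59 in control calves 176, 177, 180, 181 and 195. Controls 176, 177 and 181 lay above all hypoxia calves, and controls 180 and 195 lay among them. The difference was -0.40 ± 0.20 (95% interval -0.84 to 0.05; limma, adjusted p = 0.344). It was -0.35 in the lower run of calf numbers, 0.06 in the upper, and -0.20 with the run as a block. Without hypoxia calves 178 and 199 together it was -0.37 (limma, adjusted p = 0.627).

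**Figure D2:**
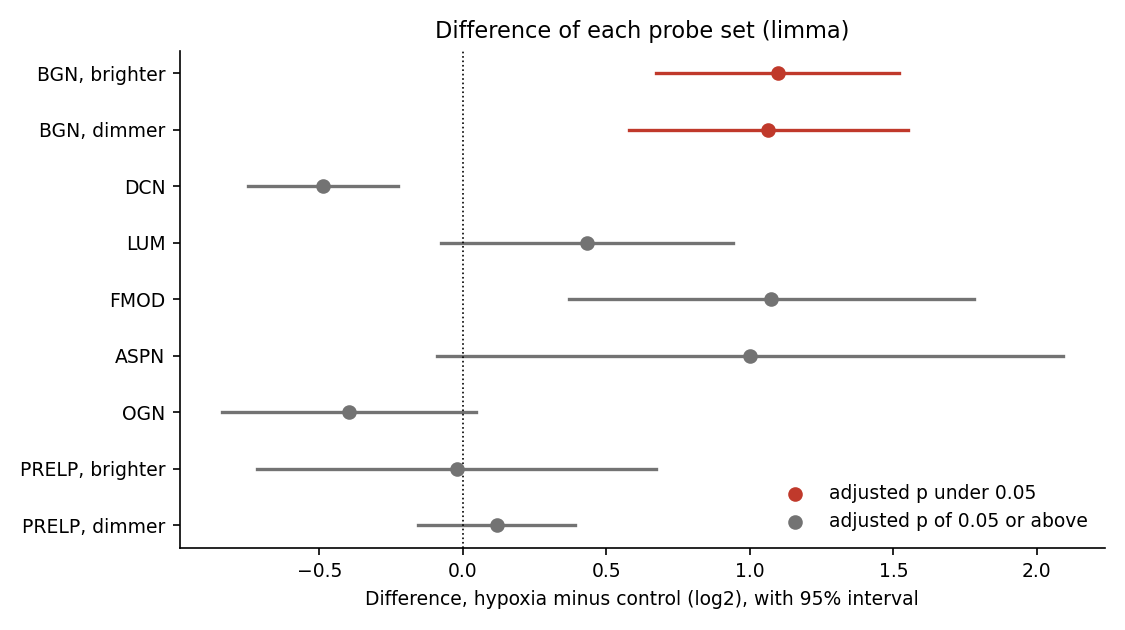
Difference between hypoxia and control calves (horizontal axis, log2, hypoxia minus control) for each probe set, with its 95% interval from limma. The 2 BGN probe sets, in red, passed; DCN and FMOD have intervals that leave out 0 before adjustment over all probe sets, and the other 5 intervals hold 0.

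Of the 6 pairs of the same class, BGN minus DCN was the 1 that passed. FMOD minus PRELP shifted by 1.10, with 2.54 to 3.14 in hypoxia calves and 1.02 to 2.69 in control calves (exact permutation p = 0.0317; adjusted p = 0.0951). It passed without control calf 180 (1.35, adjusted p = 0.0159) and with the mean of both PRELP probe sets (1.03, adjusted p = 0.0477). In the other 12 of 14 alternatives it did not pass. The highest adjusted p was 0.134 (exact permutation test), without hypoxia calves 178 and 199 together, where the shift was 1.08. FMOD minus LUM shifted by 0.64 and PRELP minus LUM by -0.45 (adjusted p = 0.262 and 0.4).

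Members that share a cluster in the cattle genome had unlike differences in the 3 pairs compared. In the RefSeq gene order of assembly ARS-UCD2.0, used for order only, KERA, LUM and DCN are consecutive genes, as are FMOD, PRELP and OPTC, and OGN, OMD, ASPN and ECM2. BGN has no other member on its chromosome. The 3 pairs of members in these clusters were compared after their values had been seen, so their p-values describe pairs already seen to differ. DCN minus LUM was 0.90 to 2.27 in hypoxia calves and 2.08 to 3.05 in control calves, a shift of -0.92 (exact permutation p = 0.0159; adjusted p = 0.0475 over 3 pairs). Without calves 178 and 199 it was -0.61 (exact p = 0.0536). ASPN minus OGN was -2.59 to -0.30 in hypoxia calves and -4.02 to -1.80 in control calves, a shift of 1.40 (exact p = 0.0476; adjusted p = 0.0476). That call ended when any of control calves 176, 177, 181 and 195 or hypoxia calves 192, 199 and 204 was left out (shifts of 1.02 to 1.48, exact p = 0.0556 to 0.0952). It also ended after quantile normalization (1.41, exact p = 0.0556) and without calves 178 and 199 together (1.17, exact p = 0.0893). FMOD minus PRELP had an adjusted p of 0.0475 among these 3 pairs, against 0.0951 among the 6 pairs of the same class (exact permutation test).

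**Figure D3:**
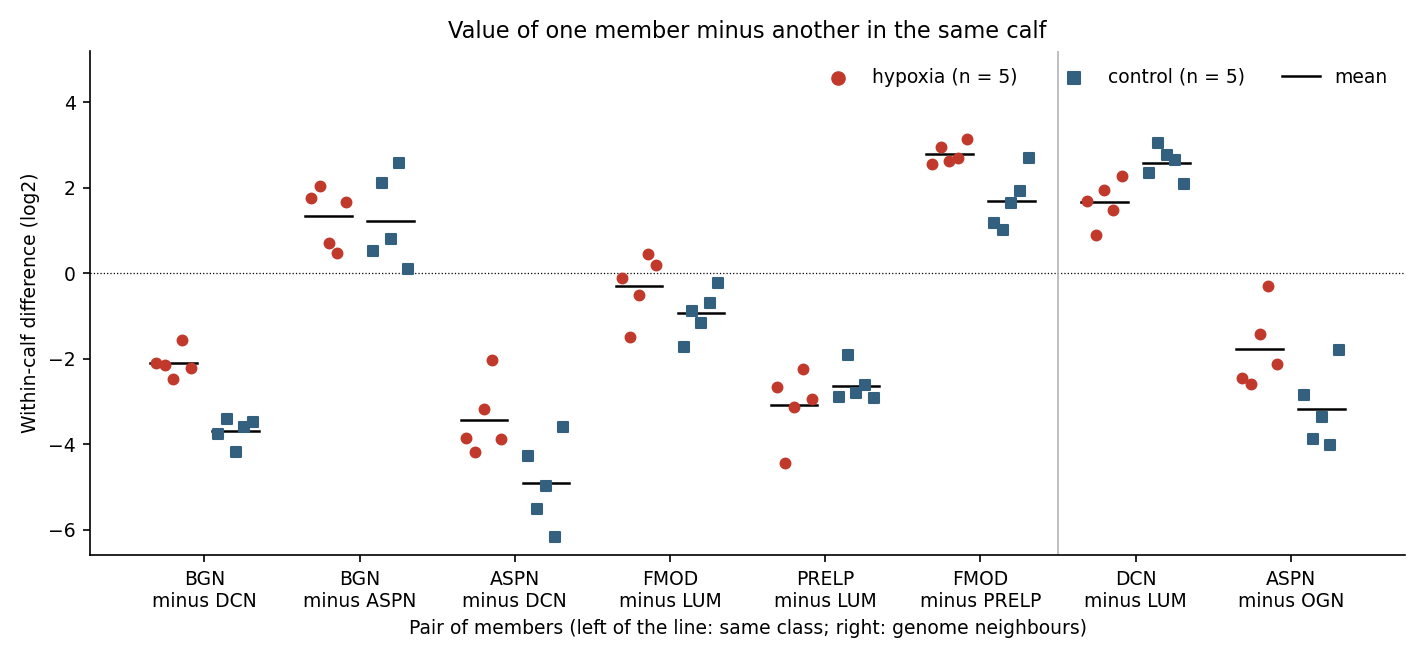
Log2 value of 1 member minus another in the same calf (vertical axis), with hypoxia calves as circles left of control calves as squares and bars at the means (n = 5 each). The 6 pairs of the same class are left of the grey line. The 2 further pairs that share a genome cluster, labelled genome neighbours, are right of it. BGN minus DCN is the pair whose groups do not overlap, at -2.48 to -1.55 in hypoxia and -4.18 to -3.41 in control.

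The fibroblast marker mean, which stands for the cells that make most of these proteins, differed by -0.06. Of 11 measured markers (of 12 listed), 0 rose and 2 fell, where 2.17% of named genes rose and 1.49% fell. At an unadjusted p under 0.05 (limma), 1 of the 11 was higher and 2 were lower, against 11.1% and 11.3% of named genes. By sign, 7 of the 11 differences were positive and 4 negative, with a median of 0.10. The 1 higher marker was MFAP5, with a difference of 0.74 ± 0.30 (limma, adjusted p = 0.226). The marker mean was 9.76 ± 0.21 in hypoxia and 9.81 ± 0.28 in control (SD, n = 5 each; exact permutation p = 0.706, adjusted p = 0.706 over 13 cell type lists). PDGFRA, a growth factor receptor that marks fibroblasts, fell by 0.89 ± 0.17 on its brightest probe set (limma, adjusted p = 0.0213), and SCARA5, a scavenger receptor of resting fibroblasts, fell by 1.13 ± 0.23 (adjusted p = 0.0273). PDGFRA lost its call when control calf 177 or 181 was left out (differences of -1.0 to -0.80 with each calf left out in turn; highest adjusted p = 0.0596). SCARA5 lost its call when control calf 176, 177 or 181 was left out, or hypoxia calf 178 (-1.26 to -0.91; highest adjusted p = 0.0694). Without hypoxia calves 178 and 199 together SCARA5 differed by -0.83 and did not pass (adjusted p = 0.0653), whereas PDGFRA passed (-1.03, adjusted p = 0.0439). With the run of calf numbers as a block neither passed (adjusted p = 0.078 for SCARA5 and 0.0604 for PDGFRA). The other 2 PDGFRA probe sets, both dim, differed by 0.14 and 0.07.

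Relative to the mean of the fibroblast markers in the same calf, BGN was -0.71 to 0.11 in hypoxia calves and -1.91 to -1.37 in control calves. DCN on this scale was 1.49 to 1.83 in hypoxia calves and 1.96 to 2.27 in control calves. Both separated the groups, BGN upward (as 1.25% of all probe sets did) and DCN downward (0.45%), and the other 5 members overlapped. In whole tissue, fewer cells of a type and less RNA per cell cannot be told apart. The 7 measured markers of activated fibroblasts averaged 9.52 ± 0.70 in hypoxia and 8.57 ± 0.35 in control (SD; exact p = 0.0397, adjusted p = 0.12). Of these 7, 1 rose, COL12A1, where 2.17% of named genes rose. The 7 measured T lymphocyte markers averaged 4.18 to 4.78 in hypoxia calves and 4.87 to 5.52 in control calves, a difference of -0.51 with no overlap (exact p = 0.00794, adjusted p = 0.103), and all 7 had negative differences without passing singly. The 3 measured genes (of 6 listed) of the atrium and conduction list, NPPA, MYL4 and SLN, averaged 7.74 ± 0.81 in hypoxia and 6.73 ± 0.56 in control (SD, exact permutation p = 0.0159, adjusted p = 0.103). NPPA had the largest difference of these, 2.13 ± 0.63, against 0.62 ± 0.41 for MYL4 and 0.26 ± 0.26 for SLN (limma, adjusted p = 0.098, 0.487 and 0.659). The means of endothelial, epicardial and cardiomyocyte markers differed by 0.18, 0.15 and 0.08. Their exact permutation p was 0.0476, 0.0397 and 0.0556, each with an adjusted p of 0.12. No cell type list had an adjusted p under 0.05. The part of these lists in the BGN result was not tested.

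Calf 199 had the highest hypoxia value of 4 of the 7 members (BGN, FMOD, ASPN and PRELP). That calf also read 6.48 for KERA, the keratan sulfate proteoglycan keratocan. The other 4 hypoxia calves read 2.43 to 2.71, and the controls 2.29 to 3.00. The 5 measured valve and tendon-like markers (of 9 listed) averaged 5.37 in calf 199, 4.31 to 4.79 in the remaining hypoxia calves and 4.29 to 4.51 in the controls. In that list COMP, a matrix protein of cartilage and tendon, read 6.23 in calf 199, 4.45 to 4.61 in the remaining hypoxia calves and 4.42 to 4.93 in the controls. THBS4, a thrombospondin of tendon and stressed heart, was highest in calf 199, at 10.72, but calf 173 was close, at 10.29. The remaining hypoxia calves read 8.28 to 8.72 for THBS4 and the controls 7.69 to 8.54. CHAD reached 4.45 in calf 199, TNMD and HAPLN1 stayed below 3 in all 10 calves, and none of the 5 passed. The 3 measured genes of the atrium and conduction list averaged 9.15 in calf 199, 7.18 to 7.61 in the remaining hypoxia calves and 5.80 to 7.21 in the controls. The part of these markers in the values of calf 199 was not tested; without it BGN rose by 0.94 (adjusted p = 0.023). Of 6 control transcripts with probe sets at the 3' and 5' ends, actin differed, with 3' minus 5' values of 1.51 to 2.55 in hypoxia calves and 2.81 to 4.35 in control calves (exact p = 0.00794, adjusted p = 0.0476), and the other 5 overlapped (adjusted p = 0.302 to 0.714). Its part in the results was not tested.

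No other small leucine-rich proteoglycan passed. Of 6 measured (of 11 listed), 0 rose and 0 fell (limma; 1 higher and 0 lower at an unadjusted p under 0.05, which 11.1% of named genes met upward and 11.3% downward), with a median difference of -0.01, against 0.43 over the 7 members and -0.01 over all named genes. EPYC, the gene of epiphycan, had a difference of 0.66 ± 0.21 (adjusted p = 0.123). OMD, the gene of osteomodulin, which lies between OGN and ASPN, differed by 0.05 ± 0.11 at a dim level of 3.39 in hypoxia and 3.34 in control. EPYC, OPTC, KERA and CHAD were dim as well. With OMD they were brighter than 10.6 to 29.0% of probe sets, and TSKU than 59.5%. The brightest probe sets of the members were brighter than 64.4 to 98.3%. The 2 medians thus compare genes read at unlike levels.

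Genes that build the sugar chains did not pass either. Of 22 measured genes of chondroitin, dermatan and keratan sulfate assembly (of 38 listed), 0 rose and 0 fell (limma; 4 higher and 1 lower at an unadjusted p under 0.05, against the same 11.1% and 11.3% of named genes), and the median was 0.09. The largest positive difference, 0.42 ± 0.28, was that of DSEL, an epimerase of dermatan sulfate, and the largest negative one, -0.57 ± 0.24, that of UST, which adds sulfate to uronic acid. PAPSS1, which makes the sulfate donor, had the smallest p of the list, with a difference of 0.37 ± 0.12 (adjusted p = 0.131), and CHSY1, a chondroitin chain polymerase, differed by 0.40 ± 0.16. Of 11 measured proteases and enhancers that act on these proteins or on procollagen (of 14 listed), 0 rose and 0 fell (1 higher and 0 lower unadjusted), with a median of 0.06.

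Among other proteoglycans 1 of 15 measured (of 23 listed) passed, where 2.17% of named genes passed upward and 1.49% downward. At an unadjusted p under 0.05 (limma), 4 of the 15 were higher and 1 was lower, against 11.1% and 11.3% of named genes. GPC3, a glypican on the cell surface, fell to 5.02 ± 0.40 in hypoxia, against 6.13 ± 0.42 in control (SD, n = 5 each), a difference of -1.11 ± 0.23 (limma, adjusted p = 0.0282) with no overlap between groups. The call was lost when any of control calves 176, 177 and 181 or hypoxia calves 178, 199 and 204 was left out (-1.23 to -0.96 with each calf left out in turn; highest adjusted p = 0.0688), without calves 178 and 199 together (-0.87, adjusted p = 0.14) and with the run of calf numbers as a block (-0.98, adjusted p = 0.0825). The median of this list was 0.15.

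Of 25 measured binding partners and receptors (of 32 listed), 2 rose and 0 fell, with a median of 0.14. Over all named genes 2.17% rose and 1.49% fell. At an unadjusted p under 0.05 (limma), 6 of the 25 were higher and 1 was lower, against 11.1% and 11.3% of named genes. TGFB2, a TGF-beta ligand of the kind that biglycan and decorin bind, read 6.61 to 8.50 in hypoxia calves, with a median of 7.27, and 4.83 to 6.04 in control calves, with a median of 5.46. The groups did not overlap, and it rose by 1.76 ± 0.34 (3.39-fold; limma, adjusted p = 0.0238). That call was lost when control calf 181 or hypoxia calf 178 was left out (highest adjusted p = 0.0616). Leaving out calves 178 and 199 together gave a difference of 1.36 (adjusted p = 0.0683), and the run of calf numbers as a block gave 1.81 (adjusted p = 0.0572). TGFB1 and TGFB3 differed by 0.14 ± 0.16 and 0.55 ± 0.31 without passing (adjusted p = 0.717 and 0.411). COL12A1, a collagen that sits on fibril surfaces, rose by 1.82 ± 0.42 on the brightest of 3 probe sets (adjusted p = 0.0428), but its other probe sets differed by 1.10 and -0.04 without passing. Its call was lost when any 1 control calf was left out, or hypoxia calf 173 or 178 (highest adjusted p = 0.0968), and the difference was 1.13 without calves 178 and 199 together (adjusted p = 0.0744) and 1.98 with the block (adjusted p = 0.07). The fibril collagens that biglycan and decorin coat did not pass, with 0.10 ± 0.26 for COL1A1 and 0.07 ± 0.18 for COL3A1 (adjusted p = 0.89 and 0.895). Of the receptors of soluble biglycan, TLR2 differed by 0.65 ± 0.28 (adjusted p = 0.25) and TLR4 by -0.005 ± 0.19 (adjusted p = 0.994).

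**Figure D4:**
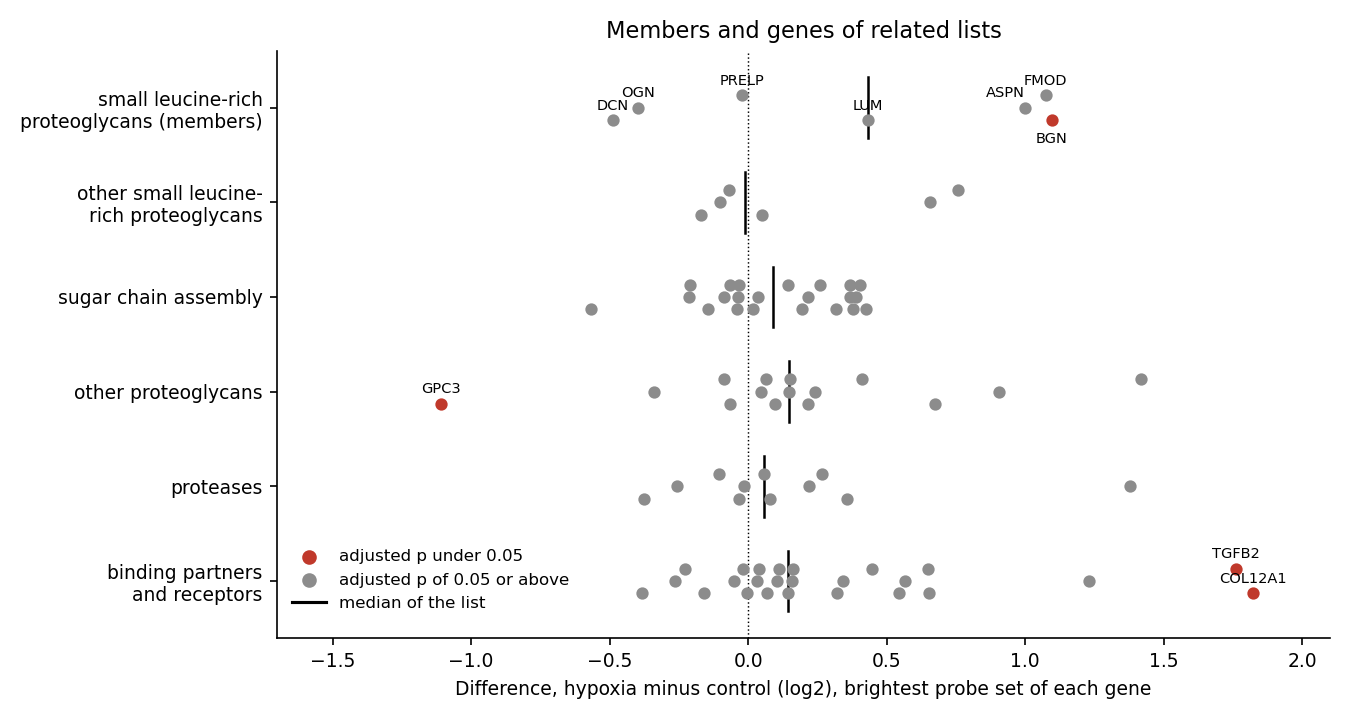
Difference between hypoxia and control calves (horizontal axis, log2, hypoxia minus control) of the brightest probe set of each gene, for the 7 members and the genes of 5 related lists; black bars are list medians, and red points passed an adjusted p of 0.05. BGN, TGFB2 and COL12A1 passed upward and GPC3 downward, and the members run from -0.49 for DCN to 1.10 for BGN.

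As a description, the genes whose deviations from the group means across the 10 calves were most like those of BGN, among 5918 other named genes with a mean of at least 6, were SULF2, SLC22A17 and TAGLN (Pearson r = 0.95, 0.94 and 0.91). For DCN they were BRMS1L, DZIP1 and WIPF1 (r = 0.91, 0.90 and 0.89). The highest values among so many genes over 10 calves are large by selection. SULF2, an enzyme that trims sulfate from heparan sulfate, differed by 0.45 ± 0.18 between the groups (limma, adjusted p = 0.205), and none of the 6 passed.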

How the data were processed

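The authors deposited log2 expression values made with RMA, per the submitters' processing notes; its software, version, probe set definitions and genome build are not given in the sources used here. This method corrects background, equalises the distributions of the arrays and summarises the probes of a set, and it can compress bright values. The 2 deposited tables agreed in all 24016 shared probe sets (largest difference 0). Left out were 112 Affymetrix controls, used only for the 3' minus 5' values. Groups came from sample titles, and no paired fit was possible because each calf number occurs once. Arrays number 10, which limits precision.

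Hypoxia minus control was fitted with limma 3.58.1 in R 4.3.3 (lmFit, eBayes) over all probe sets, with Benjamini-Hochberg adjustment at 0.05, and was tested on simulated data. Single values were compared by exact two-sided permutation of calves. For counts by gene, the brightest probe set of a gene stood for it. Symbols came from the platform annotation (13292 probe sets with 1 symbol, 86 with several, 10638 with none), and Entrez identifiers of all 7 members matched RefSeq. Protein and promoter sequences were not used here. Named were all members, passing genes of each list (up to 4), TGFB1, TGFB2, TGFB3, COL1A1, COL3A1, TLR2 and TLR4, and the 3 genes most like BGN and DCN. EPYC, OMD, DSEL, UST, PAPSS1, CHSY1, KERA, VCAN and the cell type markers with values were chosen after values were seen. The members and lists were chosen with earlier results of these data known. Alternatives covered array weights, scaling, brightness filters, calf-number runs, variance models, thresholds, tests, probe set choice and calves left out. Figures used matplotlib 3.10.9 in Python 3.11.15.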

Additional observations from a re-analysis of the deposited data

Results flagged for a closer look

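Of 206 sets of 5 values screened, 14 held a calf far from the rest of its group, and chance alone marks about 1 in 20. The sets were the 9 member probe sets, the brightest probe set of each gene of the related lists and of PDGFRA and SCARA5, and the cell type means, each in both groups. None of the 9 member probe sets held such a calf. In hypoxia calf 199, KERA read 6.48, against 2.43 to 2.71 in the others of its group, CSGALNACT2 6.52, against 5.87 to 6.02, SPOCK2 3.62, against 3.81 to 3.84, and the atrial and conduction list mean was 9.15, against 7.18 to 7.61. TGFB1 read 4.57 in hypoxia calf 178, against 5.13 to 5.35. In hypoxia calf 204, CHST7 read 9.62, against 7.81 to 8.05, and ACAN 3.92, against 3.69 to 3.73. B4GALT1 read 8.56 in hypoxia calf 192, against 9.02 to 9.20, and 9.15 in control calf 177, against 8.47 to 8.61 in the other controls. In control calf 195, UXS1 read 6.56, against 5.64 to 5.71, and COL18A1 6.84, against 5.96 to 6.19. TLR2 read 4.98 in control calf 181, against 5.35 to 5.50. In control calf 176, ACAN read 3.26, against 3.64 to 3.72, and the T lymphocyte list mean was 5.52, against 4.87 to 5.05.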

How the results depend on the processing

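The sign of BGN, DCN, LUM, FMOD, ASPN and OGN held in all 19 alternatives of each, and that of PRELP turned in 6 without passing. The 2 BGN probe sets that passed became 1 with the run of calf numbers as a block, 0 without hypoxia calves 178 and 199 together (brighter set 0.94, adjusted p = 0.0578), 0 at an adjusted p of 0.01 and 0 with an ordinary t statistic, and 1 to 2 with single calves left out. By the ordinary t statistic 25 of all probe sets passed upward and 12 downward, against 396 and 256 by limma. Member probe sets lower in hypoxia numbered 1, which was DCN, with median centring (-0.50, adjusted p = 0.0426), on probe sets of above-median brightness (-0.49, adjusted p = 0.0445, where fewer are tested), with a variance trend (-0.49, adjusted p = 0.0425), after weighting arrays (-0.50, adjusted p = 0.0414) and at a threshold of 0.1, and 0 to 1 with single calves left out (DCN -0.56 to -0.43). Passing pairs of the same class numbered 0 without calves 178 and 199, 2 when a gene's probe sets were averaged, and 1 to 3 with single calves left out (3 without control calf 180). Of 3 related genes that passed, 0 did without calves 178 and 199 and 0 to 3 with single calves left out. Causes were not tested.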

Other observations

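VCAN, the gene of the large chondroitin sulfate proteoglycan versican, was noticed after its values were seen. Its brightest probe set read 7.57 ± 1.03 in hypoxia and 6.15 ± 0.61 in control (SD, n = 5 each), a difference of 1.42 ± 0.45 that did not pass (limma, adjusted p = 0.12). Its other 2 probe sets differed by 1.42 ± 0.33 and 1.40 ± 0.33 and passed (adjusted p = 0.0467 and 0.0456), so the count of proteoglycan genes above depends on the probe set read. ADAMTS4, a protease that cuts versican, read 5.67 to 9.11 in hypoxia calves, with calf 199 highest, and 4.55 to 7.11 in control calves, a difference of 1.38 ± 0.63 that did not pass (adjusted p = 0.279).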
